A study of Mus musculus with 2 samples.

Results

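The cells described here are hepatocytes of mouse liver compared by the strength of their DNA stain. They were chosen by their counts: at least 10 gene counts, a volume of at least 50 cubic µm, and at least 5 counts summed over F2, Apoh, Fga, Fgb, Serpina1a, Igfbp2 and Igfbp4, 7 genes of liver plasma proteins and growth factor binding proteins. These conditions held for 13794 of 111966 segmented cells, 4980 of 26037 in section 1 and 8814 of 85929 in section 2. Within each section the cells were ranked by total DAPI, the summed image signal of a dye that binds DNA. They were divided into 3 equal groups, called low-DAPI, middle and high-DAPI here, of 1660 cells each in section 1 and 2938 each in section 2.

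Transcripts of 500 genes were imaged by MERFISH, in which single RNA molecules in a tissue slice are identified by fluorescent barcodes over rounds of imaging, on 10 µm cryosections of liver. Both sections belong to 1 group, labelled Liver_2d with replicate numbers 1 and 2, and the labels give no genotype, strain, age or treatment for either. The series' design text speaks of treated mice with liver metastases, and no label ties a section to a treatment. All comparisons were therefore between cells of the same section. The p-values rest on how unevenly the groups differed between these sections, with a spread estimated jointly over all genes. Nothing says that the sections came from separate animals, so the p-values cover no spread between animals, and the unevenness may be technical.

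Hepatocytes take up and process nutrients, make most plasma proteins and produce bile, and they divide this work along the lobule between portal and central veins. They are among the few mammalian cells that often become polyploid, with extra chromosome sets in a single nucleus or spread over a pair of nuclei, and polyploid hepatocytes are larger. The DAPI sum of a sliced cell is not a count of genome copies and was not converted into one.

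The chosen cells held 297924 gene counts in section 1 and 195129 in section 2, and the 7 choosing genes supplied 25.1% and 37.5% of them. Blank barcodes, which name no gene, came to 0.516% and 0.222% of counts. The highest blank reached 150 of 1546 blank counts in section 1 and 147 of 434 in section 2. That line rests on a single barcode per section, and a gene below it need not lie below the other blanks. The hepatocyte label was checked with 26 other hepatocyte genes of the panel, expressed per 10000 counts of all genes but the choosing ones. Their sum was 2095 to 3079 over the DAPI groups of section 1, against 1071 in the other cells with at least 10 counts. In section 2 it was 3998 to 4906, against 2968. Markers of other liver and blood cell types, 47 in all and none at 0 counts, summed to 520 to 1049 in section 1 against 1618 in the other cells, and to 252 to 551 in section 2 against 1078. The hepatocyte genes were thus richer, and the other markers poorer, in the chosen cells of both sections, but transcripts of other cell types were present in them.

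The ranking itself is a description. In section 1 the median total DAPI was 317 mega-units in the low-DAPI, 724 in the middle and 1515 in the high-DAPI group, a 4.78-fold span. In section 2 it was 115, 221 and 379 mega-units, a 3.30-fold span. Ranks were taken within sections because the signal of section 1 was higher throughout. The borders cut through a continuous range: the brightest low-DAPI cell had 521.141 mega-units and the dimmest middle cell 521.272 in section 1, and 168.068 and 168.111 in section 2. The upper borders lay between 1005.41 and 1005.54 mega-units and between 281.261 and 281.33. For the choosing genes, 634 cells of section 1 held exactly 5 counts and 711 cells just missed with 4, with median DAPI of 695 and 732 mega-units. In section 2, 1956 cells held 5 and 2100 held 4, with 212 and 218 mega-units.

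High-DAPI hepatocytes were larger and held more transcripts per cell, but fewer per volume. In section 1 the median volume was 815 cubic µm in the low-DAPI, 1207 in the middle and 1671 in the high-DAPI group. In section 2 it was 875, 1339 and 1787. The log2 ratio of high to low was 1.03 ± 0.00 (SD, n = 2), nearly the same in both sections. Median counts per cell were 35, 50 and 52 in section 1 and 17, 19 and 21 in section 2, a log2 ratio of 0.44 ± 0.19 (SD, n = 2). The median number of different genes per cell went from 21 to 30 and from 11 to 14. Counts per 1000 cubic µm were lower with more DAPI: the medians were 46.5, 41.9 and 33.9 for section 1 and 20.5, 15.1 and 12.2 for section 2, a log2 ratio of -0.60 ± 0.20 (SD, n = 2). No test was run on these ratios. The minimum of 10 counts and 5 choosing counts asks more counts per volume of a small cell than of a large one: in section 2, 35.8% of low-DAPI and 19.1% of high-DAPI cells held 10 to 14 counts, and in section 1, 5.72% and 2.41%.

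**Figure D1:**
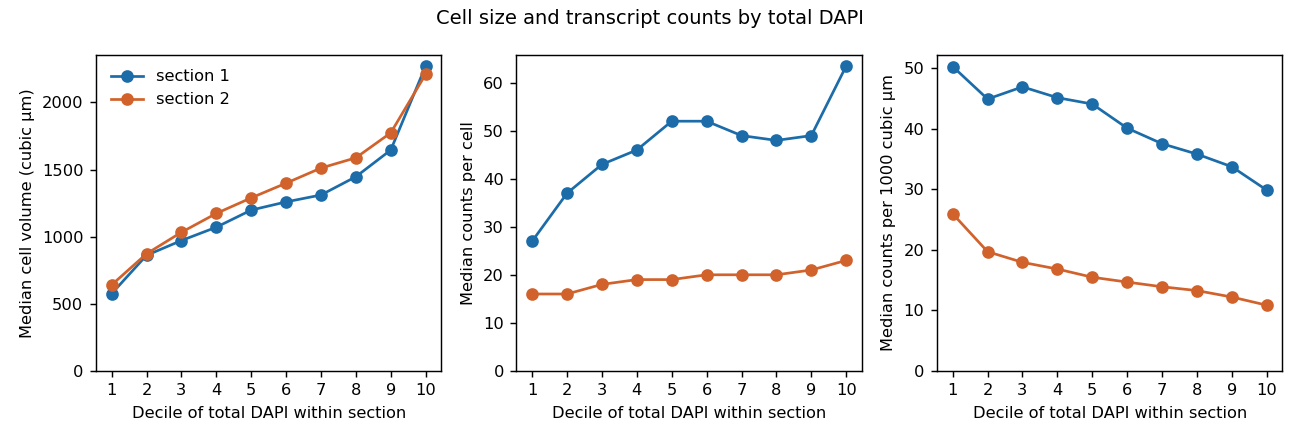
Median cell volume (cubic µm), counts per cell and counts per 1000 cubic µm in each decile of the chosen cells ranked by total DAPI, for section 1 (blue) and section 2 (orange). Volume climbs in every step of both sections, from 575 to 2271 and from 640 to 2210 cubic µm, while counts per volume fall from 50.3 to 29.8 and from 25.9 to 10.8.

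Total DAPI and cell size went together. Across cells, Spearman's rho of total DAPI with volume was 0.63 in section 1 and 0.74 in section 2, as a description of 4980 and 8814 cells whose DAPI, volume and counts share 1 segmented outline. DAPI per volume still differed between the groups, with medians of 352, 611 and 986 kilo-units per cubic µm in section 1 and 123, 164 and 225 in section 2. Of the high-DAPI cells 68.7% and 67.1% were also in the highest group by DAPI per volume. DAPI also varied with the place in the section: tiles of 500 µm took up 18.2% and 12.4% of the variance of log2 total DAPI, and 41.2% and 27.1% of that of DAPI per volume. For volume the shares were 3.07% and 4.20%.

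Other stains differed less than DAPI. PolyT per volume, which marks polyadenylated RNA, had log2 ratios of high to low DAPI of 0.42 in section 1 and 0.33 in section 2, although the counts of the panel per volume were lower. The channel labelled GFP had ratios of 0.01 and -0.02, and that labelled Ttr 0.27 and -0.08. The surroundings differed between sections: the median number of segmented cells within 25 µm was 5, 6 and 7 from low to high DAPI in section 1, and 13, 13 and 12 in section 2.

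Summed counts of the high-DAPI group were compared gene by gene with those of the low-DAPI group, with section as a block. The choosing genes were left out. By edgeR's quasi-likelihood test with Benjamini-Hochberg adjustment 122 of 360 genes passed at 0.05, which is 33.9%, with 58 higher (16.1%) and 64 lower (17.8%) in high-DAPI cells. Of these, 55 of the 58 and 63 of the 64 had the same direction in both sections, against 276 of all 360. The 3 higher genes without it were Cenpf, Itga4 and Csf3r, and the 1 lower gene was Cldn2. The median change was 1.15 on the log2 scale among the higher and -0.76 among the lower genes. The TMM scaling used here puts the median of all genes at -0.01. With library size alone that median was 0.25, and 85 genes were higher and 23 lower, so every change is relative to this choice of zero. The count of 122 was 0 without the section as a block, with 13 genes at an unadjusted p under 0.05. It was 46 of 209 tested genes when each cell was thinned to 10 counts, and 101 of the 122 could be tested again. With at least 10 choosing counts per cell it was 46 of 266, and 107 of the 122 could be tested again. Levels are printed per 10000 counts without TMM, and a fold read from them is larger for high-DAPI cells than the tested change.

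**Figure D2:**
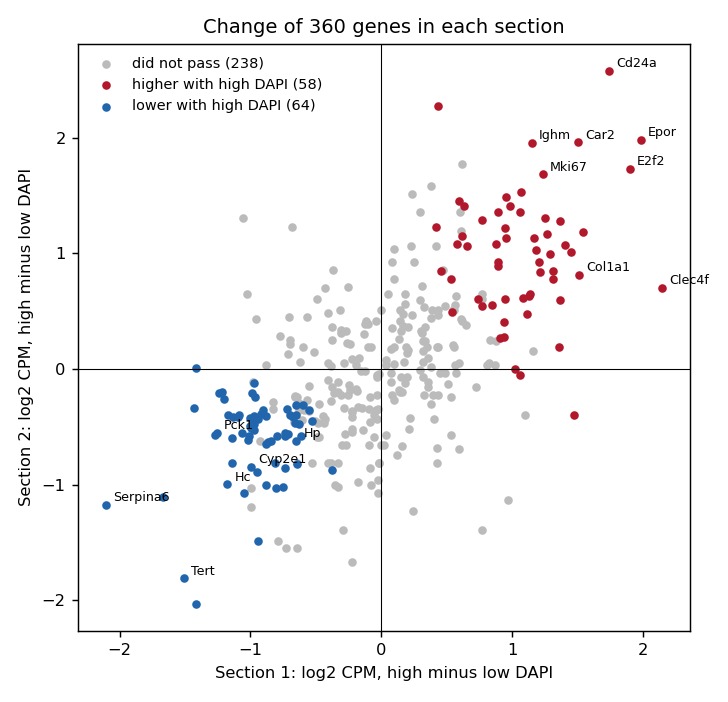
Difference in log2 CPM, high-DAPI minus low-DAPI group, for each of 360 genes in section 1 (horizontal) and section 2 (vertical), with red for the 58 genes that passed as higher, blue for the 64 that passed as lower and grey for the rest. Cd24a, Epor and E2f2 lie at the upper right with at least 1.73 in both sections, and Hc, Cyp2e1 and Serpina6 lie below 0 in both.

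The highest changes were in genes of red cell precursors. Cd24a, a surface glycoprotein of immature blood cells, stood at 29.2 per 10000 in low-DAPI and 117 in high-DAPI cells of section 1, and at 6.37 and 49.9 in section 2. The log2 change was 2.10 (SE 0.22), with an edgeR adjusted p of 1.5e-18. Epor, the erythropoietin receptor, stood at 10.8 and 51.9 in section 1 and at 6.37 and 32.8 in section 2, and rose by 2.07 (SE 0.23, edgeR adjusted p = 5.8e-16). High-DAPI cells were above low-DAPI cells in both sections for both genes, with the middle group between. Car2, a carbonic anhydrase abundant in red cells, went from 13.4 to 45.99 and from 10.0 to 49.4 and rose by 1.76 (SE 0.22). Klf1, the transcription factor that directs red cell development, rose by 1.08 (SE 0.21), and the stem cell factor receptor gene Kit by 1.06 (SE 0.35). Of 6 tested erythroid genes 5 rose, with a median of 1.42, against 16.1% higher and -0.01 over all genes. The summed erythroid markers were 95.4, 181 and 308 per 10000 from low to high DAPI in section 1 and 36.7, 59.9 and 175 in section 2. In the other cells with at least 10 counts they stood at 596 and 289.

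Genes of the cell cycle were divided. Mki67, the proliferation marker Ki-67, stood at 74.7, 119 and 209 per 10000 from low to high DAPI in section 1 and at 10.0, 13.6 and 40.7 in section 2. It rose by 1.43 (SE 0.20, edgeR adjusted p = 3.8e-10), with 1.23 and 1.68 in the sections. E2f2, a transcription factor of S phase genes that red cell precursors also express, went from 31.04 to 139 and from 15.5 to 63.9 and rose by 1.88 (SE 0.21, edgeR adjusted p = 1.3e-16). In the decile of cells with the highest DAPI E2f2 reached 178 and 110 per 10000, and Mki67 251 and 68.2. Ube2c, an enzyme of the anaphase-promoting pathway, rose by 1.08 (SE 0.22), Tpx2, of the mitotic spindle, by 0.78 (SE 0.28), and Stmn1, which destabilises microtubules, by 0.53 (SE 0.21). Cenpf, a kinetochore gene, rose by 1.30 (SE 0.44) with 116 and 14 counts, and its sections stood at 1.47 and -0.39.

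Of the 6 tested genes of the cell cycle list Mki67 and Cenpf rose and 4 did not pass, with a median of 0.43 against 16.1% higher and a median of -0.01 over all genes. The mitotic kinase gene Cdk1 stood at 0.11 (SE 0.24), cyclin D1 (Ccnd1) at -0.41 (SE 0.23), and the inhibitors Cdkn1a and Cdkn1b at 0.08 (SE 0.28) and 0.74 (SE 0.40). Cdkn2d, another inhibitor, rose by 1.53 (SE 0.59) but held 39 and 21 counts, below the highest blank. Btg2, an antiproliferative gene, stood at 23.5 and 82.4 in section 1 and at 13.6 and 38.6 in section 2 and rose by 1.44 (SE 0.21). Pim1, a survival kinase, rose by 1.37 (SE 0.22). These genes moved together with the erythroid markers above, and the part of red cell precursors in them was not tested.

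Genes of monocytes and neutrophils rose in part, and single genes of other leukocytes did. Ighm, the heavy chain of IgM, stood at 30.2 and 80.3 in section 1 and at 7.28 and 36.5 in section 2 and rose by 1.49 (SE 0.21). Spib, a transcription factor of B cells and plasmacytoid dendritic cells, rose by 1.20 (SE 0.23), while 5 of 5 tested genes of the B lineage list did not pass and had a median of 0.59. Clec4f, a lectin of Kupffer cells, stood at 2.64 and 15.7 in section 1 and at 5.46 and 11.5 in section 2 and rose by 1.61 (SE 0.30), with 2.14 and 0.70 in the sections. Csf1r, the receptor that macrophages need, rose by 0.62 (SE 0.20), so that 2 of 7 macrophage genes rose and 5 did not pass, against 16.1% of all genes that rose. Among 9 genes of monocytes and neutrophils 6 rose, against 16.1% of all genes, with a median of 0.89. They included Ncf1 and Cybb, subunits of the phagocyte oxidase, at 1.33 (SE 0.22) and 1.30 (SE 0.32), and the integrin gene Itgam at 1.24 (SE 0.26). Cyba, a further oxidase subunit, and the class II antigen presentation gene Cd74 rose by 1.10 (SE 0.23) and 1.21 (SE 0.23). The summed macrophage markers were 63.7, 86.6 and 114 per 10000 from low to high DAPI in section 1 and 30.6, 48.5 and 60.3 in section 2, and those of monocytes and neutrophils 98.4, 183 and 231 and 43.97, 69.4 and 106.

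Mesenchymal and endothelial genes were less uniform. Col1a1, the main fibrillar collagen, stood at 43.01, 55.4 and 146 per 10000 in section 1 and at 32.2, 42.4 and 69.1 in section 2 and rose by 1.22 (SE 0.19, edgeR adjusted p = 1.4e-08). Col3a1, often made with it, stood at 0.43 (SE 0.23, edgeR adjusted p = 0.15) and did not pass. Cxcl12, a chemokine of stromal cells on the same list, fell by 0.48 (SE 0.19). The summed stellate and mesenchymal markers were 136, 154 and 231 per 10000 in section 1 and 77.3, 93.3 and 122 in section 2. Of 8 endothelial genes Bmp2 rose, by 0.77 (SE 0.30), and 7 did not pass, with a median of -0.02. The summed endothelial markers were highest in the middle group, at 97.6, 156 and 126 per 10000 in section 1 and 47.3, 65.5 and 61.6 in section 2. Spp1, a gene of bile duct cells and some macrophages, rose by 1.86 (SE 0.60) with only 45 and 16 counts.

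Genes of hepatocyte function were lower in high-DAPI cells as shares of counts, but not in counts per group of equal cell number. The 26 genes summed to 15174 counts in the low-DAPI and 20406 in the high-DAPI group of section 1. In section 2 they summed to 16178 and 19159. Of 26 tested hepatocyte genes 17 fell and no member rose, with a median of -0.65, against 17.8% lower and -0.01 over all genes. With library size alone 8 fell and again no member rose, with a median of -0.39 against 0.25. Summed, these genes stood at 3079, 2513 and 2095 per 10000 in section 1 and at 4906, 4450 and 3998 in section 2. Hp alone supplied most of the sum in section 2. As shares without TMM, 4 of the 26 were higher in high- than in low-DAPI cells in section 1 and 9 in section 2. In the same groups the 47 markers of other cell types summed to 520, 795 and 1049 in section 1 and to 252, 358 and 551 in section 2. All are shares of one total, so a higher sum of one set lowers the shares of the rest.

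Among secreted proteins Hp, which encodes haptoglobin, stood at 1432, 1209 and 1080 per 10000 in section 1 and at 3111, 2726 and 2442 in section 2. It fell by 0.64 (SE 0.15, edgeR adjusted p = 0.00019), by nearly the same amount in both sections. Fn1, fibronectin, went from 1650 to 1061 and from 539 to 490 and fell by 0.65 (SE 0.16). Hc, complement component C5, went from 39.8 to 20.8 and from 24.3 to 14.6 and had the largest fall among genes above the highest blank in both sections, 1.11 (SE 0.20, edgeR adjusted p = 2.2e-06). Ambp, the precursor of alpha-1-microglobulin and bikunin, fell by 0.87 (SE 0.17), Apob, the protein of very low density lipoprotein, by 0.77 (SE 0.18), and protein C (Proc) by 0.66 (SE 0.18). In all 5 of 9 tested genes of the secreted list fell, against 17.8% of all genes, with a median of -0.65.

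Lipid and bile acid genes fell nearly as a group, 6 of 7 against 17.8% of all genes, with a median of -0.77. The lists overlap: Cyp7a1, Cyp8b1 and Abcb11 are also on the hepatocyte list, of which 17 of 26 fell. So are Hp, Apob, Ambp, Pck1 and G6pc, and Cyp2e1, Gulo, Cyp1a2, Ass1, Hsd17b13 and Cdh1 of the lobule lists below. The falls of these lists are therefore not separate results. Cyp8b1, which sets the balance of bile acids, went from 110 to 61.3 per 10000 in section 1 and from 85.5 to 77.4 in section 2 and fell by 0.77 (SE 0.18). Cyp7a1, whose enzyme takes the first and limiting step from cholesterol to bile acids, fell by 0.74 (SE 0.22), and the canalicular exporters Abcb11 and Abcc2 by 0.88 (SE 0.23) and 0.78 (SE 0.19). Acadm, an enzyme of fatty acid oxidation, stood at 17.9 and 10.98 in section 1 and at 31.5 and 20.5 in section 2 and fell by 0.92 (SE 0.21). Acsl1, which activates fatty acids, fell by 0.65 (SE 0.18). Abcb11 stood at -1.20 in section 1 and at -0.25 in section 2.

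For glucose metabolism, Pck1, the gatekeeping enzyme of gluconeogenesis, stood at 201, 167 and 99.9 per 10000 in section 1 and at 175, 157 and 145 in section 2 and fell by 0.90 (SE 0.17, edgeR adjusted p = 4.7e-06). G6pc and Slc37a4, which release free glucose, fell by 0.80 (SE 0.19) and 0.92 (SE 0.23), more in section 1 (-1.24 and -1.43) than in section 2 (-0.21 and -0.33), a difference that was not tested. Of 5 genes of glycolysis and the pentose phosphate path Tkt (transketolase) rose by 0.88 (SE 0.19) and Adpgk by 1.23 (SE 0.25), while Ldha, lactate dehydrogenase, fell by 0.55 (SE 0.18). The median of the 5 was 0.42.

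Hepatocyte identity and contact genes were among those that fell. Hnf4a, the central transcription factor of hepatocytes, stood at 88.5 and 55.9 in section 1 and at 71.6 and 67.8 in section 2 and fell by 0.64 (SE 0.18). Cebpa, another transcription factor of hepatocytes, stood at -0.28 (SE 0.18) and did not pass. Gjb1, the gap junction protein connexin 32, fell by 0.80 (SE 0.18), and E-cadherin (Cdh1) by 0.80 (SE 0.21). Rai14, an actin-associated protein, fell by 1.01 (SE 0.26).

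**Figure D3:**
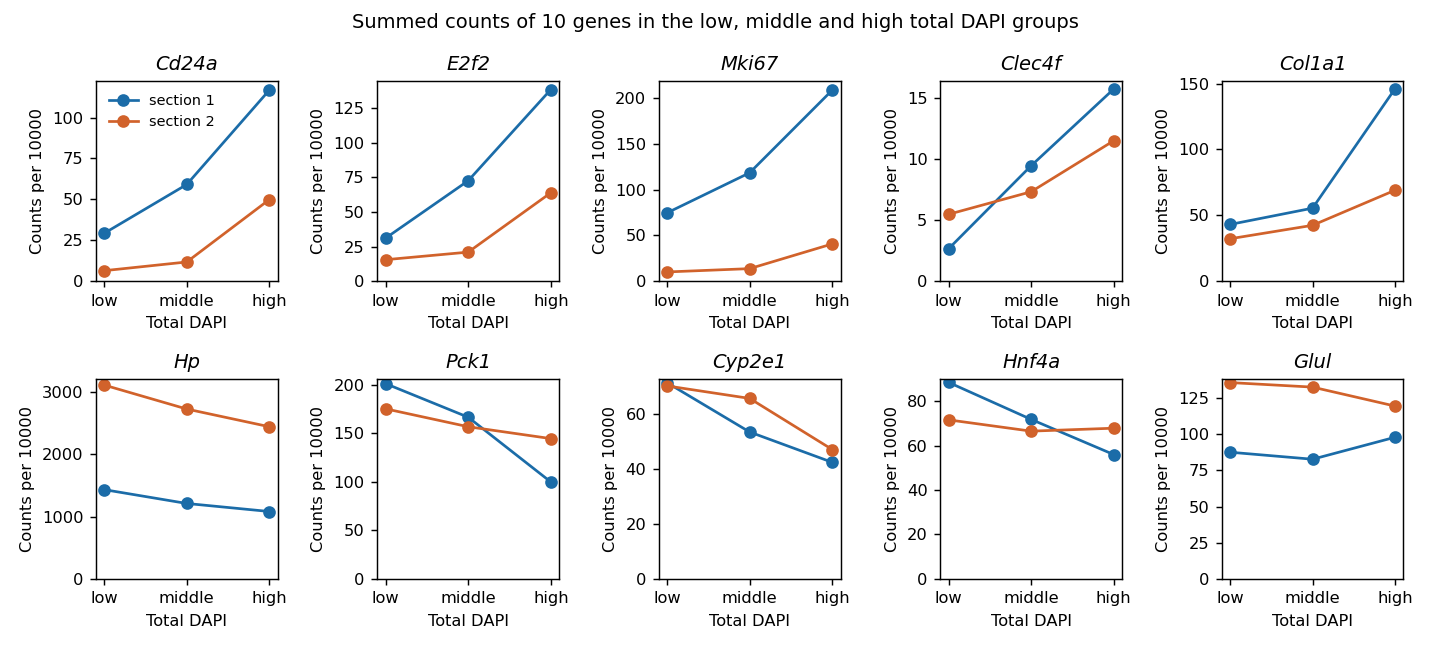
Summed counts of 10 genes per 10000 counts (each axis starts at 0) in the low-, middle and high-DAPI groups of section 1 (blue) and section 2 (orange). Cd24a, E2f2, Mki67, Clec4f and Col1a1 climb in both sections, Hp, Pck1 and Cyp2e1 descend in both, Hnf4a ends below its start in both, from 88.5 to 55.9 and from 71.6 to 67.8, and Glul ends above its start in section 1, after a lower middle group, and descends in section 2.

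Some genes of both ends of the lobule fell. Of 13 tested pericentral genes 6 fell and none rose, against 17.8% lower over all genes, with a median of -0.74. With library size alone 3 of 13 fell (median -0.48), and without cells that hold 2 or more counts of other markers 0 of 10 passed edgeR (median -0.11). Cyp2e1, a drug-metabolising enzyme of the central end, stood at 71.2, 53.3 and 42.3 per 10000 in section 1 and at 70.1, 65.5 and 46.9 in section 2 and fell by 0.93 (SE 0.19, edgeR adjusted p = 1.3e-05). Gulo, of vitamin C synthesis, fell by 0.75 (SE 0.18) and the drug-metabolising enzyme Cyp1a2 by 0.98 (SE 0.35). The Wnt target Tbx3 and the Wnt co-receptor Lgr5 fell by 1.03 (SE 0.36) and 1.60 (SE 0.48), on few counts. Glul, glutamine synthetase, stood at 87.7, 82.8 and 98.0 in section 1 and at 136, 133 and 120 in section 2, and at -0.26 (SE 0.18, edgeR adjusted p = 0.26) it did not pass. Nor did Axin2 at -0.53 (SE 0.24), Rnase4 at -0.45 (SE 0.26), Lect2 at -0.44 (SE 0.28), Ang at -0.58 (SE 0.51), Lhpp at -1.04 (SE 0.46) and Oat at 0.14 (SE 0.29).

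Of 11 periportal genes 5 fell and none rose, against 17.8% lower over all genes, with a median of -0.43. With library size alone 1 of 11 fell (median -0.17), and without cells that hold 2 or more counts of other markers 0 of 11 passed and the median was 0.12. Besides Pck1, G6pc and Cdh1 these were Ass1 of the urea cycle, by 0.53 (SE 0.18), and Hsd17b13 of lipid droplets, by 0.66 (SE 0.20). Cyp2f2, the cytochrome that marks this end most sharply, stood at 33.5 and 34.1 in section 1 and at 19.7 and 25.7 in section 2, with a tested change of -0.09 (SE 0.20). The urea cycle genes Arg1 and Asl stood at -0.01 (SE 0.21) and -0.43 (SE 0.20), Hal at 0.15 (SE 0.31), Ctsc at 0.52 (SE 0.31) and Sox9 at -0.24 (SE 0.35), and did not pass. The 11 genes summed to 456, 380 and 284 per 10000 from low to high DAPI in section 1. In section 2 the sum was nearly level, at 447, 446 and 433. As shares without TMM, 4 of the 11 were higher in high-DAPI cells in section 1 and 8 in section 2.

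The place of the cells in the lobule was read from Glul, Cyp2e1 and Gulo over Pck1, Ass1 and Hsd17b13. In the cells' own counts the log2 ratio was 0.01 in the low-DAPI and 0.56 in the high-DAPI group of section 1, and -0.03 and -0.20 in section 2, so the sections differed in direction. Among chosen neighbours up to 50 µm away, without the cell, the medians were 0.26 and 0.19 in section 1 and 0.00 and -0.32 in section 2. No test was run on these ratios. In section 2 the neighbours' median was lower for high-DAPI cells, towards the periportal side, by 0.32, and both quartiles were lower too. In section 1 the median was lower by 0.07, but the lower quartile went up from -0.637 to -0.585 and the upper quartile was higher as well. With cells ranked within 500 µm tiles the differences of the neighbours' medians were 0.067 in section 1 and -0.032 in section 2. The neighbours thus gave no clear direction shared by the sections, and the cells' own counts differed in direction.

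Several genes with large changes rested on few transcripts. Serpina6, corticosteroid-binding globulin, had the largest fall, 1.91 (SE 0.51), on 43 and 18 counts. Tert, of telomerase, fell by 1.62 (SE 0.42) on 97 and 15 counts, and Met, the receptor of hepatocyte growth factor, by 1.45 (SE 0.44) on 44 and 37. Tcf7 fell by 0.98 (SE 0.33), and Pds5b, of cohesin, rose by 1.80 (SE 0.73) on 39 and 11 counts. Serpina6, Tert, Lgr5, Met, Tbx3, Cyp1a2, Tcf7, Spp1, Pds5b and Cdkn2d were all below the highest blank of the chosen cells in both sections, and Clec4f, Emilin2 and Rai14 in section 2. Emilin2 had risen by 1.41 (SE 0.25). Among the passing genes 24 of 58 higher and 46 of 64 lower ones exceeded the highest blank in both sections, against 113 of all 360. Blank counts per 10000 counts differed little, with 49.9, 53.0 and 52.2 from low to high DAPI in section 1 and 21.7, 24.3 and 20.9 in section 2. Per volume they were lower in high-DAPI cells, with log2 ratios of -0.23 and -0.75.

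The share of cells with transcripts of other cell types grew with DAPI. In section 1, 32.9% of low-DAPI, 58.6% of middle and 66.7% of high-DAPI cells held 2 or more counts of the 47 markers, and in section 2, 4.97%, 10.6% and 20.4%. Larger cells hold more counts of every kind, so each cell was also thinned to 10 counts. Then 27.3%, 38.5% and 47.0% of cells in section 1 and 12.4%, 18.5% and 26.3% in section 2 held at least 1 such count. The draw included the choosing genes, which made up a larger share of counts in low-DAPI cells. Their part in the thinned shares was not tested. Of the 47 markers 40 had a higher share in high- than in low-DAPI cells in each section. The genes that rose were largely those richer outside the chosen cells: 53 of the 58 (91.4%) had a higher level in the other cells with at least 10 counts than in the chosen cells in both sections, against 183 of all 360 (50.8%) and 0 of the 64 that fell. The other cells can include hepatocytes that missed the choosing rule.

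**Figure D4:**
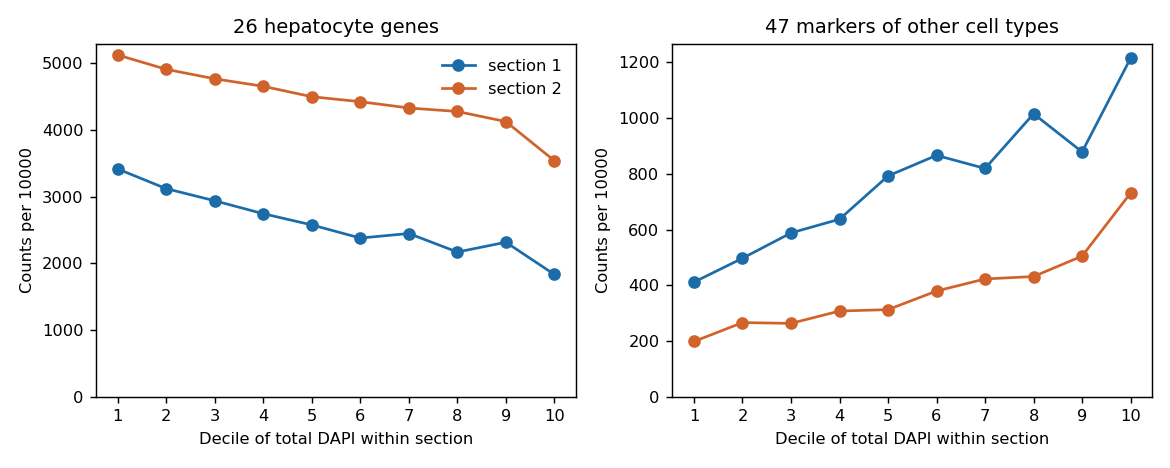
Summed counts of 26 hepatocyte genes (left) and of 47 markers of other cell types (right) per 10000 counts, by decile of total DAPI in section 1 (blue) and section 2 (orange). The hepatocyte sum falls from 3416 to 1834 and from 5126 to 3540, and the sum of other markers climbs from 411 to 1215 and from 198 to 731.

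Most of the changes lost their call when cells with 2 or more counts of other markers were left out and these markers were not tested. This cut was not scaled to the total of a cell, so a cell with more counts of every kind was more likely to be left out. It took 32.9% of low-DAPI and 66.7% of high-DAPI cells of section 1, and 4.97% and 20.4% in section 2. The DAPI groups were formed anew from the rest, and the part of count depth in the changes was not tested. There remained 2353 cells in section 1 and 7757 in section 2, and 225 genes were tested. By edgeR 7 of them passed, 6 higher and 1 lower, out of 92 that had passed before and could be tested again, and 47 had an unadjusted p under 0.05. E2f2 stood at 23.98 and 62.3 per 10000 in section 1 and at 13.2 and 41.9 in section 2 and rose by 1.38 (SE 0.17, edgeR adjusted p = 0.021). Ighm rose by 1.47 (SE 0.21), Btg2 by 1.32 (SE 0.21), and Ushbp1, Fam214b and Spib by 1.40 (SE 0.25), 1.45 (SE 0.27) and 1.41 (SE 0.27). Ambp fell by 0.60 (SE 0.11, edgeR adjusted p = 0.042). A similar ratio of change to SE gave a far larger p in this fit than among all cells, as E2f2 shows. The number of passing genes is therefore not like for like with that among all cells.

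As shares of counts, the higher genes kept more of their size than the lower ones. Of 32 genes that had passed as higher and were tested again 31 had the same sign, with a median of 0.91 in place of 1.09. Of 60 lower genes 57 had the same sign, with a median of -0.34 in place of -0.76. The median SE was 0.28 in place of 0.23 among the higher and 0.18 in place of 0.20 among the lower. Mki67 stood at 0.86 (SE 0.24, edgeR adjusted p = 0.11), Cyp2e1 at -0.53 (SE 0.15), Pck1 at -0.49 (SE 0.14), Hp at -0.31 (SE 0.09) and Hnf4a at -0.16 (SE 0.17). Of 25 hepatocyte genes Ambp alone passed, with a median of -0.28 against 0.08 over the 225. As shares, the change of hepatocyte genes was thus smaller in cells poor in other markers. Per volume it was not: with the summed volume as the offset 16 of 25 hepatocyte genes fell in these cells, with a median of -0.75, and over the 225 genes 4 were higher and 42 lower with a median of -0.39. The balance of higher and lower genes in these cells depended on the scale. The choosing rule asks more counts per volume of small cells, and its part in the fall per volume was not tested. A cell with fewer than 2 such counts can still hold RNA of another cell type, and the part of such RNA in the remaining changes was not tested.

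**Figure D5:**
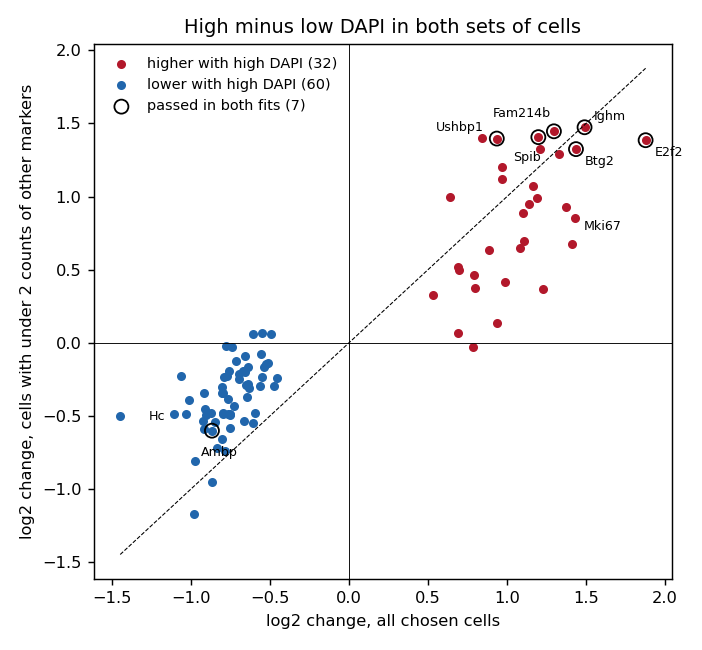
Log2 change, high-DAPI minus low-DAPI, in all 13794 cells (horizontal) and in cells with under 2 counts of other markers (vertical), for 32 genes that passed as higher (red) and 60 that passed as lower (blue) among all cells, with rings around the 7 that passed in both fits. The dashed line marks equal change, and the blue points have a median of -0.34 on the vertical against -0.76 on the horizontal axis.

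Counts per volume gave nearly the same calls. With the summed cell volume as the offset, 114 of 360 genes passed edgeR (31.7%), 51 higher (14.2%) and 63 lower (17.5%). All 51 higher genes and 60 of the 63 lower ones had also passed as shares of counts, which use the same sums. Per 1000000 cubic µm Cd24a stood at 97.7 in low-DAPI and 360 in high-DAPI cells of section 1 and at 7.80 and 41.9 in section 2, and rose by 2.11 (SE 0.21). Mki67 went from 250 to 644 and from 12.3 to 34.2 and rose by 1.44 (SE 0.19). Hp went from 4790 to 3327 and from 3811 to 2051 and fell by 0.71 (SE 0.13, edgeR adjusted p = 4.4e-06). Transcripts of these blood and proliferation genes were therefore denser in the volume of high-DAPI cells, and those of haptoglobin sparser.

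Of the hepatocyte genes 18 of 26 fell per volume, with a median of -0.72 against -0.02 over all genes, and Asl joined the list at this scale. Pck1 fell by 0.97 (SE 0.15), Cyp2e1 by 0.99 (SE 0.17), Fn1 by 0.72 (SE 0.13) and Hnf4a by 0.70 (SE 0.17). Glul stood at 293, 293 and 302 in section 1 and at 166, 134 and 101 in section 2, with -0.34 (SE 0.16, edgeR adjusted p = 0.10), and did not pass. Ctla2a, with 76 and 64 counts, below the highest blank, fell by 0.98 (SE 0.39). The choosing genes, given as a description, were sparser too: F2 went from 3842 to 2331 and from 1473 to 742, and Igfbp2 from 2906 to 1495 and from 4030 to 1998. Igfbp4 differed least among the 7, with log2 ratios of -0.44 and -0.69. When cells were ranked within deciles of volume, 6 of the 26 hepatocyte genes fell per volume, with a median of -0.56 against 0.01 over all genes.

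Ranking by DAPI per volume gave groups of more similar cell size. Its low and high groups had median volumes of 1230 and 1159 cubic µm in section 1 and 1249 and 1354 in section 2. Median counts per cell were 48 and 37 in section 1, and 19 in both groups of section 2. The edgeR test passed 82 of 360 genes (22.8%). Of these 38 were higher (10.6%) and 44 lower (12.2%), and none changed sign between the sections. Of the higher genes 32, and of the lower ones 39, had also passed by total DAPI, a ranking of the same cells. A similar ratio of change to SE gave a far larger p in this fit than by total DAPI, as Hc shows. The 82 is therefore not like for like with the 122 by total DAPI.

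Red cell precursor genes were again among the largest rises. Cd24a stood at 35.8, 91.4 and 107 per 10000 in section 1 and at 4.80, 13.1 and 56.5 in section 2 and rose by 2.19 (SE 0.34, edgeR adjusted p = 0.00099). E2f2 rose by 2.01 (SE 0.24), Epor by 1.51 (SE 0.29), Car2 by 1.49 (SE 0.25), Btg2 by 1.45 (SE 0.25), Pim1 by 1.61 (SE 0.27) and Mki67 by 1.37 (SE 0.24). Of the 6 erythroid genes 5 rose, with a median of 1.36 against -0.05 over all genes. Col1a1 stood at 41.7, 71.6 and 175 in section 1 and at 29.03, 48.03 and 72.1 in section 2 and rose by 1.51 (SE 0.24). Fam214b rose by 1.46 (SE 0.30). Spp1, Cdkn2d, the chemokine receptor-like gene Ccrl2 and Tnfrsf13c, the B cell receptor for BAFF, rose by 2.86 (SE 0.74), 1.95 (SE 0.61), 1.82 (SE 0.49) and 1.70 (SE 0.52) on counts below the highest blank.

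Of the hepatocyte genes 15 of 26 fell in this ranking, against 12.2% of all genes, with a median of -0.70. With library size alone 5 of 26 fell (median -0.47). Without cells that hold 2 or more counts of other markers 0 of 25 passed edgeR (median -0.32). Over the 225 genes of that fit 22 were higher, among them Mki67, E2f2, Btg2, Pim1 and Tkt, and 3 were lower. Counts of other markers per cell were higher in the high than in the low group, with means from low to high of 2.81, 4.48 and 4.06 in section 1 and 0.351, 0.526 and 0.806 in section 2, and their part in the result was not tested. Cyp2e1 stood at 68.5, 52.1 and 34.98 per 10000 in section 1 and at 71.7, 64.8 and 42.6 in section 2 and fell by 1.09 (SE 0.20, edgeR adjusted p = 0.0018). Hc fell by 1.28 (SE 0.22, edgeR adjusted p = 0.0012), Abcb11 by 1.05 (SE 0.25), Gjb1 by 0.92 (SE 0.20) and Hp by 0.47 (SE 0.16). Cldn2, a claudin of tight junctions, fell by 0.99 (SE 0.23), and the actin-binding caldesmon (Cald1) by 0.93 (SE 0.21). The endothelial genes Lyve1 and Mmrn2 fell by 1.32 (SE 0.26) and 1.53 (SE 0.45), against -0.25 (SE 0.28) and -0.20 (SE 0.48) by total DAPI, where neither passed. Mmrn2 was below the highest blank in both sections and Lyve1 in section 2. Of 6 cell cycle genes Mki67 alone passed. Of 11 periportal genes 4 fell, and of 13 pericentral genes 6, with medians of -0.21 and -0.71. Lgr5, Met, Tert and Tbx3 fell by 1.83 (SE 0.55), 1.35 (SE 0.46), 1.34 (SE 0.43) and 1.10 (SE 0.34), all below the highest blank. Glul stood at 76.9 and 109 in section 1 and at 149 and 106 in section 2, in opposite directions.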

How the data were processed

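MERFISH transcripts of 500 genes were measured in 2 sections. The cells and gene lists were chosen with earlier results of these data known. Per the file headers, the authors deposited tables with a raw count of every gene and of 50 blank barcodes in each segmented cell, and cell tables with positions, volumes and an image signal for each stain, taken here as summed over the cell. No unit of length is named in them, and µm was assumed. Decoding and segmentation software is not given in the sources used here. Freezing in isopentane and cutting into 10 µm slices are given per the labels' protocols.

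Counts were summed per section and DAPI group, giving 6 sums with 2 residual degrees of freedom. The test adds to these a spread shared over genes, and very small p-values rest largely on it. The test was the quasi-likelihood test of edgeR 4.0.16 with TMM on genes with at least 50 counts in all and 10 per section, with section as a block, since groups of cells share their section. SEs came from the F statistic. Changes in single sections are log2 CPM differences with a prior count of 2, so both can lie on 1 side of the edgeR estimate. DESeq2 1.42.0 was an alternative. Sums and figures used Python 3.11.15, and the test step was checked on simulated data. Cells are not replicates, and 0 cell identifiers were shared by the sections. Doublets were not removed. In each comparison up to 12 genes per direction with the largest passing change and the same direction in both sections were named, with all tested cell cycle, pericentral and periportal genes. Other genes were named as passing members of lists or after their values were seen. Some genes that this rule picks are not reported here.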

Additional observations from a re-analysis of the deposited data

How the results depend on the processing

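Each alternative changed 1 choice, except that leaving out cells with other markers also left out those markers (225 genes tested) and formed the DAPI groups anew. Counts of passing genes by total DAPI (122), by counts per volume (114) and by DAPI per volume (82) were affected as follows. Without the replicate block all were 0 in edgeR, with 13, 0 and 10 genes at an unadjusted p under 0.05. With at least 10 choosing counts 266 genes were tested, and 46 passed by total DAPI and 42 by DAPI per volume. With cells thinned to 10 counts these numbers were 46 and 0 (39 unadjusted) of 209 tested genes. Ranked within deciles of volume they were 79 by total DAPI and 31 by counts per volume. Without cells with other markers they were 7, 46 (4 higher, 42 lower) and 25 (22 higher, 3 lower). Neither the 7 nor the 82 is like for like with the 122, since a similar ratio of change to SE gave a far larger p in both fits. Ranked within 500 µm tiles 166 passed by DAPI per volume, and within deciles of lobule position, an alternative chosen after seeing the data, 81 by total DAPI. DESeq2 called 100, 100 and 67. By counts per volume, ranking within deciles of counts gave 23 higher and 103 lower, and by DAPI per volume, library size alone gave 47 higher and 10 lower, with the median of all genes at 0.15. The log2 volume ratio was 0.94 with at least 20 counts, 0.93 with at least 10 choosing counts, 1.16 within tiles, 0.95 without the largest 5% of cells, and -0.00054762 within deciles of volume, by construction. In those deciles the ratio was -0.17 for counts per cell and -0.23 for counts per volume. Within tiles it was 0.75 for counts per cell, and the neighbours' position difference was 0.017. Leaving out either section gave 1.03 to 1.04 for volume, 0.30 to 0.57 for counts per cell, -0.75 to -0.46 for counts per volume, -0.16 to 0.54 for own position and -0.32 to -0.07 for neighbours. Other causes were not tested. Single sections leave no degrees of freedom for gene tests, and thinning was not run per volume. Among named genes 995 values were labelled the same, 267 lost the call, 44 moved in single sections and 0 reversed. Of the 995, 42 left out section 1 and 58 left out section 2, and these were judged by size without a call. The rest kept direction and call. Most of these genes were named for the same direction in both sections, so leaving out a section could not reverse them.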

Other observations

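The data are 2 sections of 1 group, so no value here covers spread between animals. Section 2 was shallow, with a median of 17 to 21 counts per cell in its DAPI groups, and only 120 of 360 tested genes exceeded its highest blank. That single blank held 147 of the 434 blank counts of its chosen cells, so it is a strict line. The DAPI sum was taken over the outline of a cell, and no outline of nuclei was used, so the number and the size of nuclei cannot be told apart. The choice by choosing counts also asks more transcripts per volume of small cells than of large ones.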
